A study of Mus musculus with 24 samples.

Results

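The 10 genes described here belong to the lysosomal protease system: 6 cysteine cathepsins (Ctsb, Ctsc, Ctsh, Ctsl, Ctss and Ctsz), the serine protease cathepsin A (Ctsa), the aspartic protease cathepsin D (Ctsd), legumain (Lgmn), a cysteine protease of another family, and the secreted inhibitor of cysteine cathepsins, cystatin C (Cst3). They were taken by symbol from the deposited gene table, and all 10 were found among the 15878 genes with values. Cathepsins are made as inactive precursors and become active in the acid of late endosomes and lysosomes, where they cut engulfed and autophagic protein into peptides and amino acids. Cystatins bind the active site of cysteine cathepsins, so protease and inhibitor are usually considered together. In microglia, which are the brain's own macrophages, this system handles myelin, synaptic and cell debris.

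RNA was measured in microglia sorted from brains of wild-type mice on day 28, in 24 libraries made by Smart-seq2, a method that amplifies complementary DNA from small inputs. The WD-Exos and ND-Exos groups had the BCAS operation and exosomes, small vesicles released by cells, of either kind in 100 µg doses into the tail vein at intervals of 3 days. BCAS commonly stands for bilateral carotid artery stenosis, which lowers blood flow to the forebrain. The BCAS group had the operation and saline (PBS), and the Sham group had sham surgery and saline. Each of the 4 groups held 6 libraries. The series title gives foam cells, lipid-laden macrophages, as the exosome source. The labels do not expand WD and ND and give neither the ages of the mice nor the method of exosome preparation.

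Library totals ran from 24277722 to 28892423 counts, with 8518 to 10802 genes detected per library. Neither separate animals nor batches are named in the labels, so the p-values reflect only how far these samples spread, and that spread may be technical. Summed microglial markers averaged 46700 CPM (counts scaled to one library size) with WD-Exos, 41000 with ND-Exos, 46600 in BCAS and 40200 in Sham. Neutrophil markers summed to at most 0.832 CPM in any library, and monocyte markers to at most 31.9 CPM. Markers of some other cells varied in mean between groups or were high in single libraries. Border macrophage markers averaged 221 CPM with WD-Exos, 458 CPM with ND-Exos, 354 CPM in BCAS and 653 CPM in Sham, and astrocyte markers 215 CPM with WD-Exos, 268 CPM with ND-Exos, 176 CPM in BCAS and 155 CPM in Sham. Oligodendrocyte markers reached 5230 CPM with WD-Exos, 4290 CPM with ND-Exos, 1230 CPM in BCAS and 7590 CPM in Sham. Mural cell markers reached 19.9 CPM with WD-Exos, 16.4 CPM with ND-Exos, 0.0433 CPM in BCAS and 981 CPM in Sham. Endothelial markers averaged 34.7 CPM with WD-Exos, 23.8 CPM with ND-Exos, 20.9 CPM in BCAS and 133 CPM in Sham, and neuronal markers 7.32 CPM with WD-Exos, 6.89 CPM with ND-Exos, 4.84 CPM in BCAS and 38.1 CPM in Sham. The part of these markers in the values that follow was not tested. In these sorted bulk samples, fewer cells of a type and less RNA per cell cannot be told apart. Some libraries stood apart within their groups for these genes. ND-Exos replicate 3 was the lowest of its group for 9 of the 10 genes, and BCAS replicate 2 and WD-Exos replicate 2 were each the lowest for 7. They are described together after the group comparisons.

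Cystatin C, cathepsin S and cathepsin D took the largest shares of counts of all genes in these microglia, by mean CPM with no allowance for length. Cst3 ranked first in 24 of 24 libraries, and Ctss and Ctsd held the next 2 places, in either order, in 15 of 24 and with Ctss ahead in 10 of 24. Together the 3 genes made up 12.1% ± 1.28 (SD, n = 24) of all counts, and the 10 genes 14.2% ± 1.41, with a range of 10.7% to 16.4%. By group the 10 genes held 13.8% ± 1.66 of counts with WD-Exos, 13.8% ± 1.65 with ND-Exos, 14.9% ± 1.13 in BCAS and 14.5% ± 1.12 in Sham (SD, n = 6 each). By mean CPM, Lgmn and Ctsb ranked 16 and 17 of all genes, Ctsz 36, Ctsa 47, Ctsl 57, Ctsc 119 and Ctsh 149.

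Levels of different genes were compared per length of transcript, as CPM per kilobase of the GENCODE transcript paired with RefSeq. On that scale Cst3 stood at 92500 ± 14400 CPM per kb (SD, n = 24). Cathepsin S followed at 17200 ± 3020 CPM per kb and cathepsin D at 9139 ± 2240 CPM per kb. Legumain stood at 3348, Ctsz at 1837 and Ctsb at 1364 CPM per kb. The remaining proteases were lower, with Ctsl at 900, Ctsa at 565, Ctsh at 490 and Ctsc at 381 CPM per kb. The order of the first 6 was the same with the longest coding transcript of each gene, but Ctsl then stood at 287.5 CPM per kb, below the other 9. Among the 6 cysteine cathepsins, Ctss alone made up 77.4% ± 1.8 of the summed level per kb (SD, n = 24), with a range of 73.4% to 79.9%.

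**Figure D1:**
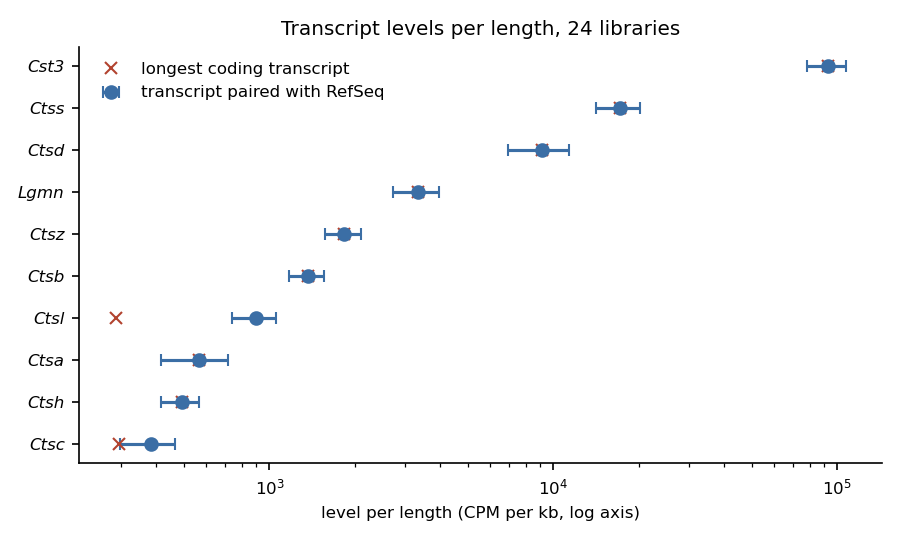
Mean level of each gene in CPM per kilobase of transcript over the 24 libraries, on a log axis, with bars of 1 SD; crosses use the longest coding transcript in place of the one paired with RefSeq. Cst3 lies at 92500 CPM per kb, and the 9 proteases spread from 17200 (Ctss) to 381 (Ctsc).

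Promoter sequence is shown for the 3 genes with the most counts and for Ctsa. Of the 3, Ctss and Cst3 varied together between libraries more closely than any other pair, and Ctsd varied apart from both. Ctsa was included because it shares a motif with Ctsd. Within groups, Ctsa had r = 0.652 with Cst3, 0.586 with Ctss and 0.57 with Ctsd. Without the 2 libraries farthest from the median of Ctsa, r was 0.749, 0.641 and 0.331 in the same order. Spearman's rho was 0.729 with Cst3, 0.575 with Ctss and 0.364 with Ctsd, the last with adjusted p = 0.133 (permutation test). Any part of the motif in the joint variation was not tested. The stretches are the 100 bases before the RefSeq start site in the GRCm38.p6 assembly, on the strand of the gene, with capitals marking TCACGTGA.
Ctsd, chr7:142387828-142387927, minus strand: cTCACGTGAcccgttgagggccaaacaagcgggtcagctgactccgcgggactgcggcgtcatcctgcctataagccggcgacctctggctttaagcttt
Ctsa, chr2:164833673-164833772, plus strand: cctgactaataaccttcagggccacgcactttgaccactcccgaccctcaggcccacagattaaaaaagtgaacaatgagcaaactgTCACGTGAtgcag
Ctss, chr3:95526686-95526785, plus strand: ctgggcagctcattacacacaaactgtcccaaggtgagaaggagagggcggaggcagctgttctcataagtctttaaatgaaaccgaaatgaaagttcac
Cst3, chr2:148875513-148875612, minus strand: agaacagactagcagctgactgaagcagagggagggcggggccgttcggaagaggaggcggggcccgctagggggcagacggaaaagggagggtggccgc

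The motifs were searched on both strands of each window, from 250 bases before to 50 after the start site. The E-box CACGTG is the core that TFEB and related factors are known to bind in lysosomal genes. It was found in windows of Ctsa, Ctsd, Ctsl and Lgmn, that is in 4 of the 8 genes with a window. By window, CACGTG was found in 4 of the 10 windows of these 8 genes and in 7.15% of all 32851 windows. TCACGTGA, which contains CACGTG, was found for Ctsd and Ctsa and in 0.974% of all windows. In Ctsd its first base lay 99 bases before the start site, and the Ctsa window held it at 13 bases before and again just after the start. The CLEAR palindrome, a longer form that contains both, was in none of the 10 windows of these 8 genes and in 0.326% of all windows. GAGGAAGT, the core bound by the macrophage factor PU.1, was found for Ctsc and Ctss and in 3.2% of all windows. Ctsb and Ctsh had no window. Ctsa and Lgmn each had 2 windows. The start sites behind the motif-bearing windows of Ctsa, Ctsl and Lgmn did not coincide with a GENCODE transcript start, and the second Lgmn window, whose start did, held none of the motifs. Of the 4 genes with CACGTG, Ctsd alone had it at a start that coincided with one. A match is a description of these letters and not a measured binding site.

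None of the 10 genes passed the threshold in any of the 6 comparisons (adjusted p at or below 0.05, edgeR's quasi-likelihood test over 10219 genes with Benjamini-Hochberg adjustment). With DESeq2 and with voom the count was also 0 in each comparison. At an unadjusted p of 0.05 the counts were 2 of 10 in BCAS against Sham (Ctss and Lgmn) and 1 of 10 in each of the other 5 comparisons. Those 5 were Ctsd in ND-Exos against BCAS, WD-Exos against ND-Exos and ND-Exos against Sham, Ctss in WD-Exos against BCAS and Lgmn in WD-Exos against Sham. Across all tested genes the adjusted threshold was passed by 0% in BCAS against Sham, 0.0196% in ND-Exos against BCAS, 0% in WD-Exos against BCAS, 0.0196% in WD-Exos against ND-Exos, 0.108% in ND-Exos against Sham and 0% in WD-Exos against Sham. Leaving out 1 library at a time gave 0 to 32 genes past the adjusted threshold in BCAS against Sham (32 without BCAS replicate 2), 1 to 3 in ND-Exos against BCAS and 2 to 5 in WD-Exos against ND-Exos. It gave 0 in WD-Exos against BCAS, 0 to 29 in ND-Exos against Sham (29 without ND-Exos replicate 3 and 0 without ND-Exos replicate 1 or 4 or Sham replicate 1, 3, 4 or 5, against 11 with all libraries) and 0 to 14 in WD-Exos against Sham (14 without WD-Exos replicate 1). The unadjusted threshold was passed by 6.04%, 4.47%, 3.71%, 5.33%, 6.66% and 5.39% of genes over the 6 comparisons in the order given first. No gene of the 10 had groups that did not overlap in any comparison. In the same order, 0.372%, 0.186%, 0.186%, 0.519%, 1.14% and 1.04% of all tested genes did. A test of any difference among the 4 groups gave its smallest adjusted p for Lgmn (adjusted p = 0.761, edgeR), then for Ctss (adjusted p = 0.84) and Ctsd (adjusted p = 0.923). It was passed by 0.0294% of all tested genes. In simulations of BCAS against Sham, the test recovered 65.7% of genes changed by 1 on the log2 scale and 6.33% of those changed by 0.5. The changed genes, 200 at once, were drawn only from highly expressed genes. These rates therefore do not hold for all tested genes or for a gene that changes alone. They were not worked out for the 10 genes described here. A p that misses the threshold does not show that the groups were alike.

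**Figure D2:**
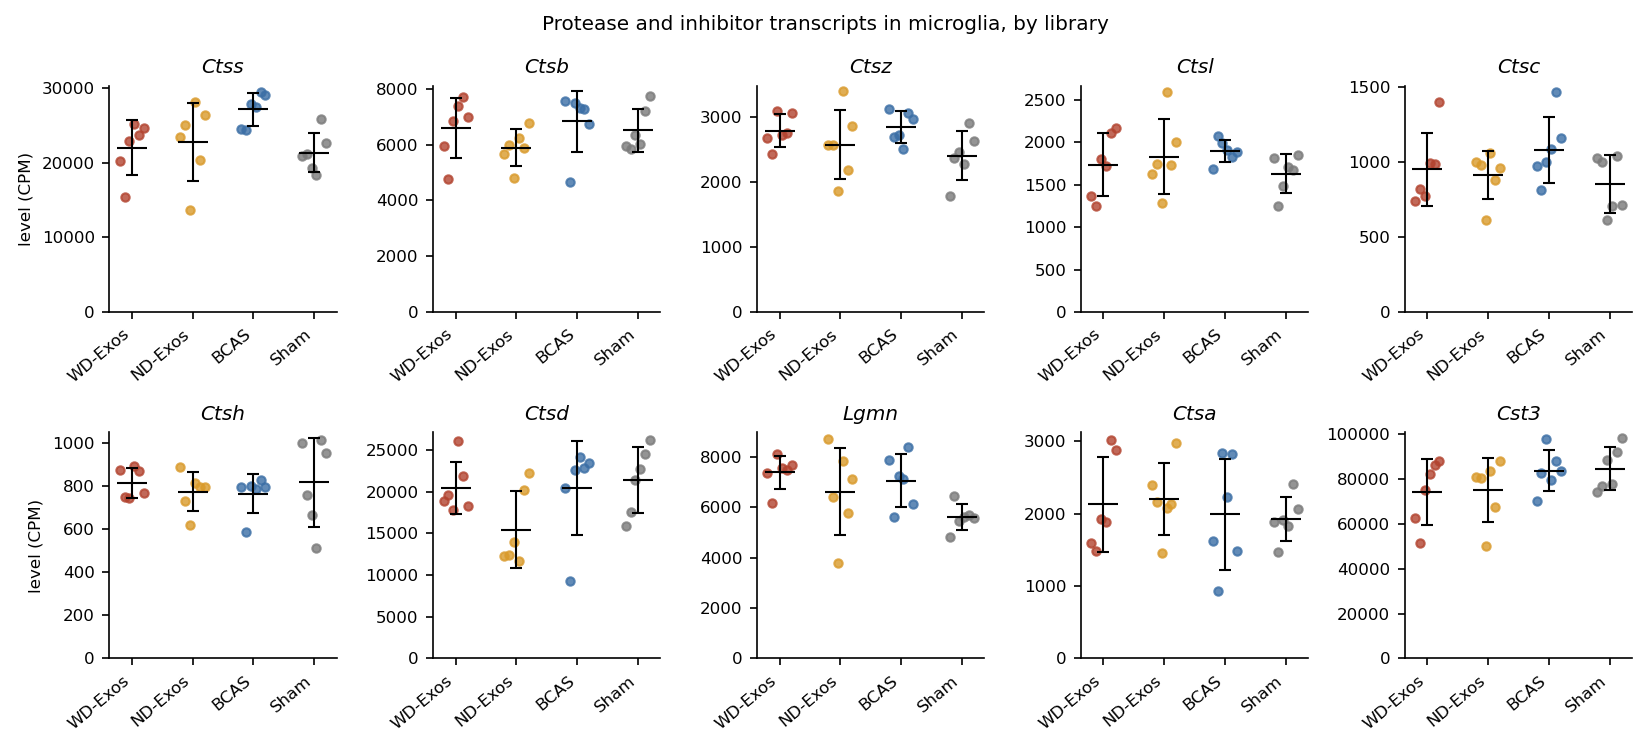
Level of each gene in CPM, with 1 point per library and the mean and SD of each group of 6. All groups overlap in every panel; Ctss is highest in BCAS, at 24340 CPM or more, and 4 of 6 ND-Exos libraries lie between 11700 and 13940 CPM for Ctsd.

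Cathepsin S, an endopeptidase that stays active at neutral pH and trims the invariant chain of class II molecules, had its highest levels in the BCAS group. It ranged from 24340 to 29450 CPM (median 27640) in BCAS libraries, against 18350 to 25800 CPM (median 21000) in Sham libraries. All 6 BCAS libraries were above the Sham median and 4 of them were above every Sham library. The log2 fold change was 0.35 (SE 0.13, adjusted p = 0.465, edgeR's quasi-likelihood test). With WD-Exos the level was 15370 to 25110 CPM (median 23270) and with ND-Exos 13620 to 28050 CPM (median 24210), each set against the same BCAS libraries. All 6 WD-Exos libraries were below the BCAS median. The log2 fold change was -0.30 for WD-Exos (SE 0.13, adjusted p = 1) and -0.25 for ND-Exos (SE 0.13, adjusted p = 1), by the same test. Without WD-Exos replicate 2 the first of these was -0.22, and without ND-Exos replicate 3 the second was -0.12. The number of genes with a count was 9786.8 ± 581 with WD-Exos, 9588.3 ± 538 with ND-Exos, 9213.2 ± 564 in BCAS and 9787.2 ± 457 in Sham (SD, n = 6 each), lowest in BCAS. With that number as a covariate, an alternative added after the values were seen, the log2 fold change of Ctss was 0.12 in BCAS against Sham, -0.09 in WD-Exos against BCAS and -0.12 in ND-Exos against BCAS.

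The other 5 cysteine cathepsins were Ctsb, which can act as an endopeptidase and as a peptidyl-dipeptidase, the carboxypeptidase Ctsz, the endopeptidase Ctsl, the aminopeptidase Ctsh and Ctsc, a dipeptidyl peptidase that activates serine proteases of granules. Of these, 4 had a higher mean in BCAS than in Sham, though none passed the test. Ctsc averaged 1084 ± 221.1 CPM in BCAS and 852.5 ± 193.6 CPM in Sham, a log2 fold change of 0.35 (SE 0.18). Ctsz averaged 2839 ± 240.8 CPM in BCAS and 2401 ± 376 CPM in Sham, a log2 fold change of 0.24 (SE 0.12). All 6 BCAS libraries were above the Sham median for Ctsz, and 5 of 6 for Ctsc. Ctsl averaged 1896 ± 132.6 CPM in BCAS and 1630 ± 227.9 CPM in Sham, a log2 fold change of 0.22 (SE 0.15), with 4 of 6 BCAS libraries above every Sham library. The adjusted p was 0.879 for Ctsc, 0.902 for Ctsz and 1 for Ctsl, by edgeR's quasi-likelihood test. With genes with a count as a covariate, the log2 fold changes in BCAS against Sham were 0.13 for Ctsc, 0.1345 for Ctsz and 0.0687 for Ctsl.

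In the exosome groups these cathepsins had the following levels. Ctsc averaged 952.9 ± 244.4 CPM with WD-Exos and 914.6 ± 159 CPM with ND-Exos, and its log2 fold changes against BCAS were -0.19 (SE 0.17) and -0.24 (SE 0.17). The first ran from -0.32 without WD-Exos replicate 6 to -0.07 without BCAS replicate 5 and was 0.0274 with the covariate. The second was -0.14 without ND-Exos replicate 3 or without BCAS replicate 5, and -0.11 with the covariate. Ctsz averaged 2784 ± 249.2 CPM with WD-Exos and 2567 ± 532.1 CPM with ND-Exos. All 6 WD-Exos libraries were above the Sham median for Ctsz, with a log2 fold change of 0.21 (SE 0.12, adjusted p = 1, edgeR), or 0.14 without Sham replicate 1. In ND-Exos against BCAS the log2 fold change of Ctsz was -0.15 (SE 0.12), which was -0.0513 without ND-Exos replicate 3, -0.24 without ND-Exos replicate 4 and -0.0844 with the covariate. Ctsl averaged 1737 ± 374.8 CPM with WD-Exos and 1830 ± 441.9 CPM with ND-Exos. Its log2 fold change in ND-Exos against Sham was 0.17 (SE 0.15), which ran from 0.0396 without ND-Exos replicate 4 to 0.25 without ND-Exos replicate 3 and was 0.10 without Sham replicate 2 or with the covariate. Cathepsin B averaged 6608 ± 1074 CPM with WD-Exos, 5900 ± 658.1 CPM with ND-Exos, 6843 ± 1100 CPM in BCAS and 6519 ± 778.2 CPM in Sham. All 6 ND-Exos libraries were below the BCAS median for Ctsb (log2 fold change -0.21, SE 0.12, or -0.10 with the covariate), and 4 of 6 WD-Exos libraries were above every ND-Exos library (0.16, SE 0.12, or 0.10 with voom). In ND-Exos against Sham the log2 fold change of Ctsb was -0.14 (SE 0.12), or -0.09 without ND-Exos replicate 3 or without Sham replicate 6. Cathepsin H had the narrowest spread of group means, at 815 ± 70.03 CPM with WD-Exos, 772.9 ± 91.56 CPM with ND-Exos, 764.8 ± 88.75 CPM in BCAS and 816.8 ± 205.4 CPM in Sham.

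Cathepsin D, the main aspartic protease of the lysosome, was lowest in the ND-Exos group. It ranged from 11700 to 22250 CPM (median 13170) with ND-Exos, against 9257 to 24110 CPM (median 22720) in BCAS. All 6 ND-Exos libraries were below the BCAS median, but BCAS replicate 2 was below them all. The log2 fold change was -0.40 (SE 0.19, adjusted p = 1, edgeR's quasi-likelihood test). With 1 library left out it ran from -0.56 without BCAS replicate 2 to -0.34 without ND-Exos replicate 4. WD-Exos libraries ranged from 17820 to 26120 CPM (median 19240), and all 6 were above the ND-Exos median. Their log2 fold change against ND-Exos was 0.40 (SE 0.19, adjusted p = 0.881, edgeR). This ran from 0.33 without WD-Exos replicate 4 to 0.54 without ND-Exos replicate 6. Sham libraries ranged from 15900 to 26250 CPM (median 22050), and 4 of 6 ND-Exos libraries were below every Sham library. The difference between ND-Exos and Sham was -0.47 on the log2 scale (SE 0.19, adjusted p = 0.5, edgeR). It ran from -0.59 without ND-Exos replicate 6 to -0.40 without Sham replicate 6. The 3 comparisons share the ND-Exos libraries. With voom, Ctsd did not reach an unadjusted p of 0.05 in any of them. ND-Exos replicates 5 and 6, at 20220 and 22250 CPM, lay within the range of the Sham libraries, and the other 4 lay between 11700 and 13940 CPM.

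Legumain, an asparaginyl endopeptidase that also processes other cathepsins to their mature chains, was higher in all 3 BCAS-operated groups than in Sham by group mean. It ranged from 6157 to 8097 CPM (median 7515) with WD-Exos, against 4836 to 6438 CPM (median 5601) in Sham. In 5 of 6 WD-Exos libraries Lgmn was above every Sham library, and the groups met only through WD-Exos replicate 2 and Sham replicate 2. The log2 fold change was 0.40 (SE 0.14, adjusted p = 0.423, edgeR), with the smallest unadjusted p of any of the 10 genes in any comparison. The adjusted p was 0.0667 with DESeq2 and 0.102 with the WD-Exos and Sham libraries fitted alone. BCAS libraries ranged from 5594 to 8393 CPM (median 7176), with 4 of 6 above every Sham library. Their log2 fold change against Sham was 0.33 (SE 0.14, adjusted p = 0.562, edgeR). ND-Exos libraries had the widest spread, 3785 to 8720 CPM (median 6771), and a log2 fold change of 0.24 against Sham (SE 0.14), which was 0.14 without ND-Exos replicate 1 and 0.36 without ND-Exos replicate 3. These comparisons share the Sham libraries. In WD-Exos against ND-Exos the value was 0.16 (SE 0.14), or 0.051 without ND-Exos replicate 3 and 0.26 without ND-Exos replicate 1. Summed early response genes such as Fos and Jun, a list chosen after the values were seen, had medians of 8542 CPM with WD-Exos, 3320 CPM with ND-Exos, 3155 CPM in BCAS and 1780 CPM in Sham, and their part in these differences was not tested. With genes with a count as a covariate, the log2 fold change was 0.39 in WD-Exos against Sham, 0.15 in ND-Exos against Sham and 0.17 in BCAS against Sham.

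Cathepsin A, a serine carboxypeptidase that also shields lysosomal beta-galactosidase and neuraminidase, varied more between libraries than between groups. It averaged 2129 ± 655.9 CPM with WD-Exos, 2200 ± 494.1 CPM with ND-Exos, 1988 ± 766.7 CPM in BCAS and 1927 ± 307.8 CPM in Sham (SD, n = 6 each). Its coefficient of variation over the 24 libraries, 26.9%, was the highest of the 10 genes, and Ctsb had the lowest at 14.4%. All 10 lay below 29.8%, the median of the 1423 genes that averaged at least 100 CPM. The 10 genes themselves averaged 792.4 CPM (Ctsh) to 79550 CPM (Cst3), and they were not compared with genes of like level.

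**Figure D3:**
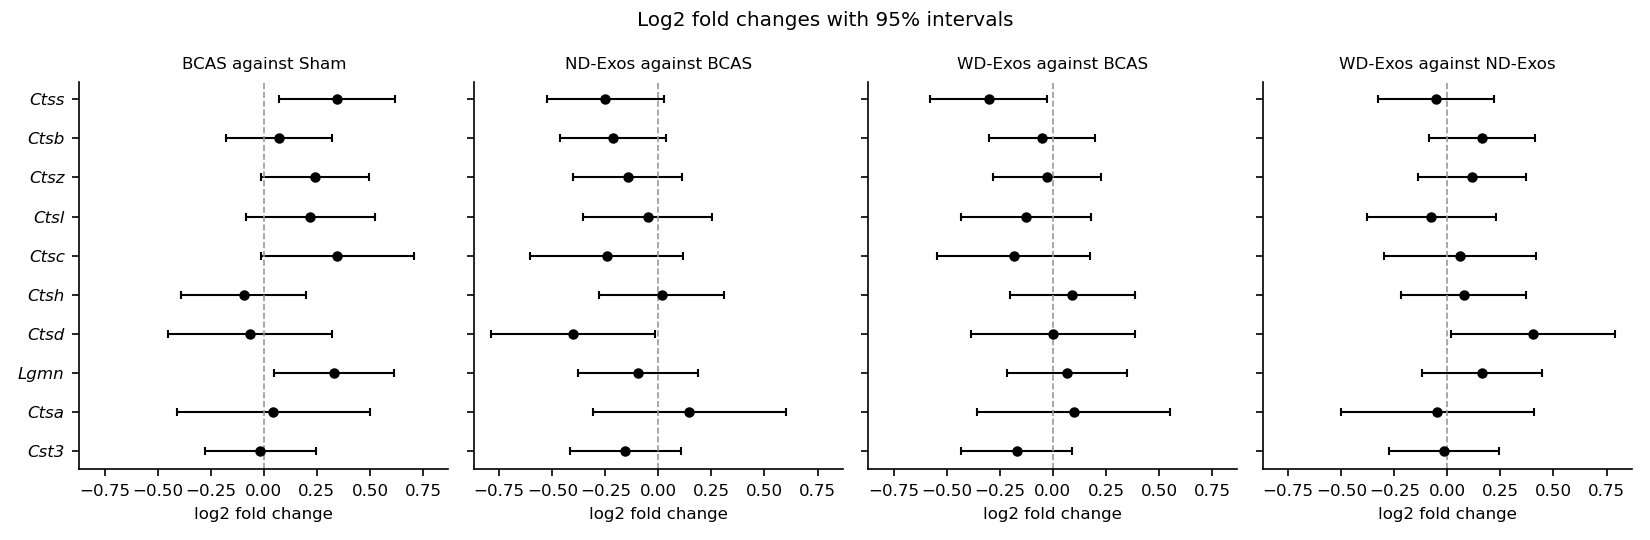
Log2 fold change of each gene in 4 comparisons, as points with 95% intervals from the edgeR fit and a dashed line at 0. The intervals of Ctss and Lgmn in BCAS against Sham, Ctsd in both ND-Exos comparisons and Ctss in WD-Exos against BCAS lie to one side of 0, and no adjusted p was at or below 0.05.

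Cystatin C had close medians in BCAS and Sham and lower ones in both exosome groups. Cst3 ranged from 51360 to 88290 CPM (median 78760) with WD-Exos and from 50140 to 88220 CPM (median 80860) with ND-Exos. BCAS libraries ranged from 70210 to 98080 CPM (median 83340) and Sham libraries from 74340 to 98460 CPM (median 83260). The groups overlapped throughout, with 2 libraries of each exosome group below every BCAS and every Sham library. The log2 fold change was -0.17 for WD-Exos against BCAS (SE 0.13) and -0.16 for ND-Exos against BCAS (SE 0.13), with adjusted p = 1 for both by edgeR. Against Sham the values were -0.19 for WD-Exos and -0.17 for ND-Exos (SE 0.13 each). Single libraries moved these values. Without WD-Exos replicate 2, WD-Exos gave -0.0854 against BCAS and -0.10 against Sham, and without BCAS replicate 3 it gave -0.11 against BCAS. Without ND-Exos replicate 3, ND-Exos gave -0.0483 against BCAS and -0.0749 against Sham. With genes with a count as a covariate, the values against BCAS were 0.0104 for WD-Exos and -0.043 for ND-Exos, and those against Sham were -0.21 for WD-Exos and -0.26 for ND-Exos. With voom the WD-Exos values were -0.26 against BCAS and -0.30 against Sham.

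The ratio of Cst3 to the summed 6 cysteine cathepsins, both in CPM per kb, was lower in the BCAS-operated groups than in Sham. It was 4.04 ± 0.245 with WD-Exos, 4.07 ± 0.23 with ND-Exos, 3.86 ± 0.38 in BCAS and 4.84 ± 0.499 in Sham (SD, n = 6 each). Sham libraries ran from 4.36 to 5.54. The lowest Sham library lay above 5 of 6 WD-Exos, 6 of 6 ND-Exos and 5 of 6 BCAS libraries. These values are a description with no test, since the genes were combined with earlier results known. Of single genes with at least 100 CPM, 4.5% had every ND-Exos library below every Sham library. That share is for single genes and is not a background for a ratio of genes that vary together. No such share is given for ratios. Cathepsin S set most of the denominator: it made up 75.9% ± 1.45 of the summed cysteine cathepsins with WD-Exos, 77.5% ± 2.02 with ND-Exos, 79.1% ± 1.18 in BCAS and 76.9% ± 1.03 in Sham.

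**Figure D4:**
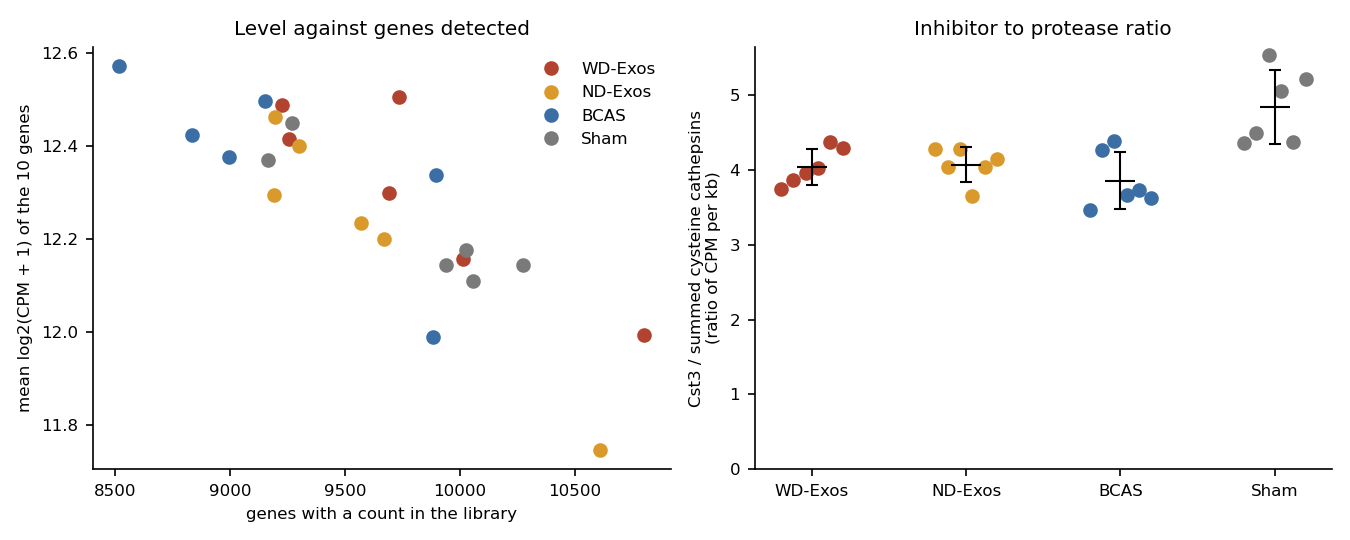
Left, mean log2(CPM + 1) of the 10 genes in each library against the number of genes with a count in it. Right, ratio of Cst3 to the summed cysteine cathepsins in CPM per kb, with the mean and SD of each group of 6; Sham libraries lie at 4.36 or above, and ND-Exos libraries at 4.28 or below.

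Within groups the genes varied together from library to library. After group means were subtracted, 44 of the 45 pairs had a positive Pearson correlation over the 24 libraries, with a median of 0.53. Over all pairs of genes with at least 100 CPM, 53.9% were positive and the median was 0.028. By permutation within groups, adjusted over 45 pairs, 27 pairs passed 0.05 with Pearson's r and 17 with both r and Spearman's rho. Ctss and Cst3 were the closest pair, with r = 0.877 and rho = 0.799 (permutation test, adjusted p = 0.000675 and 0.0018, n = 24), and r = 0.733 without the 2 libraries farthest from the median of Ctss. Ctsa and Ctsb followed with r = 0.792 and rho = 0.68 (permutation test, adjusted p = 0.000675 and 0.00375). Cathepsin D stood apart from the others, with a median r of 0.183. It correlated with Ctsb (r = 0.662, rho = 0.623, permutation test, adjusted p = 0.00983 and 0.00935), but with Ctss at r = 0.185 and with Cst3 at r = 0.183.

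**Figure D5:**
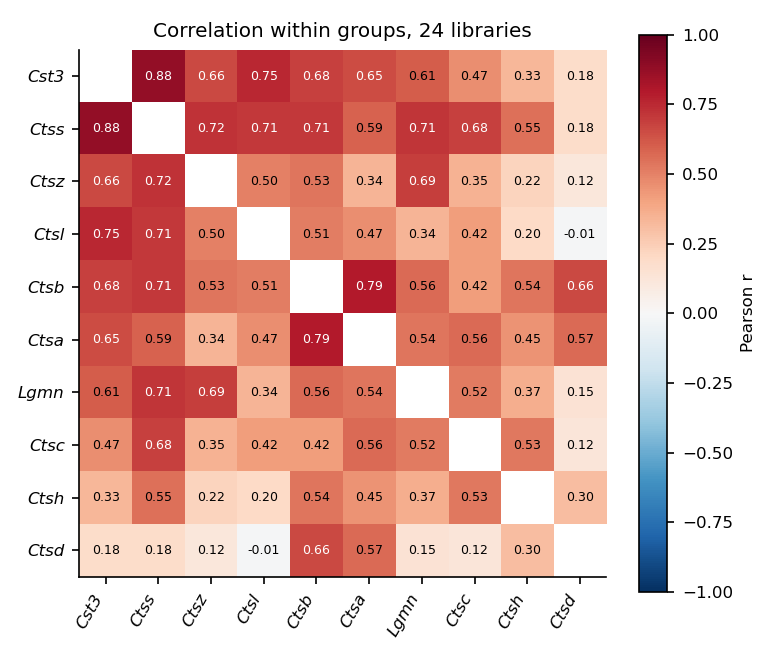
Pearson correlation of log2(CPM + 1) between each pair of the 10 genes after subtraction of group means, over 24 libraries, on a color scale from -1 to 1. The Ctss and Cst3 pair is highest at 0.877, and the Ctsd row is palest apart from its values with Ctsb and Ctsa.

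The joint variation went with how many genes a library detected. Within groups, each of the 10 genes was lower where more genes had a count, from r = -0.852 and rho = -0.808 for Ctss to r = -0.445 and rho = -0.456 for Ctsd. All 10 passed 0.05 by permutation within groups, adjusted over 10, with both measures. Ctss gave adjusted p = 0.0001 for r, from the smallest p that these permutations can give, and Ctsd 0.0407 (permutation test, n = 24). Without the 2 libraries farthest in genes detected, r was -0.76 for Ctss, -0.52 for Ctsd, and weakest for Ctsl (-0.318) and Ctsz (-0.317). Of all genes with at least 100 CPM, 65.6% were also lower, with a median r of -0.142. Over the 24 libraries, group means not subtracted, the mean log2 level of the 10 genes had r = -0.843 with genes detected (rho = -0.78). With the TMM factor, which scales the CPM of every gene in a library, the mean level had r = -0.857 (rho = -0.775). The part of that scaling in the joint variation was not tested. With genes detected subtracted, the median correlation between the 10 genes was 0.147, and without the 3 lowest libraries it was 0.292.

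Those 3 libraries were ND-Exos replicate 3, BCAS replicate 2 and WD-Exos replicate 2, with 10611, 9882 and 10802 genes with a count. The median deviation of the 10 genes from the group mean was -0.52 in ND-Exos replicate 3, -0.35 in BCAS replicate 2 and -0.35 in WD-Exos replicate 2, on the log2 scale. In the same order, the TMM factors of these libraries were 1.175, 1.018 and 1.088. BCAS replicate 1 had more genes with a count than BCAS replicate 2, 9897, but a median deviation of -0.035. BCAS replicate 2 was the highest of its group for Ctsl, at 2069 CPM. ND-Exos replicate 3 also had the highest summed oligodendrocyte markers of its group, 4293 CPM, and the lowest summed microglial markers, 27680 CPM. BCAS replicate 2 and WD-Exos replicate 2 had the highest summed early response genes (Fos, Fosb, Jun, Junb, Egr1, Atf3, Ier2, Dusp1, Nr4a1 and Zfp36) of their groups, 17380 and 21970 CPM. ND-Exos replicate 3 had 2986 CPM of these. By group they ranged from 1402 to 21970 CPM with WD-Exos, 2911 to 5468 CPM with ND-Exos, 501.5 to 17380 CPM in BCAS and 428.3 to 2576 CPM in Sham. The part of these measures in the group differences was not tested, beyond the covariate values above.

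The genes closest in pattern to each of the 10 across the 24 libraries were sought among 2626 genes with at least 50 CPM, as a description with no test. For Ctss the closest was the ribonuclease Rnase4 (r = 0.91). Cst3 was closest to the complement gene C1qb (r = 0.909) and to Fcer1g (r = 0.852). Ctsd was closest to Man2b1, the lysosomal alpha-mannosidase, and to the glycolytic enzyme gene Pkm (r = 0.905 each). Ctsb was closest to Tcn2 (r = 0.859) and Hexa (r = 0.833), Ctsa to Fcrls (r = 0.821), and Lgmn to the lysosomal cystine transporter gene Ctns (r = 0.769) and to Lair1 (r = 0.755). Rnase4 was also the closest gene to Ctsl (r = 0.793), and Pld4 to Ctsz (r = 0.759). These libraries share the variation in genes detected described above.

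The exons of some of these genes overlap those of others in GENCODE vM21, and whether the counting used strand is not given in the sources used here. Ctsa overlaps Neurl2 and Pltp, Ctsb overlaps Fdft1, and Ctsz overlaps Nelfcd by 10 bases, all on the opposite strand. The levels of these 4 neighbours, at 9.81, 30.0, 15.2 and 62.8 CPM, were far below those of the cathepsins they overlap. Ctsl overlaps the antisense gene Gm47123 and the pseudogene Gm49230, and Ctsd overlaps Gm49369 on the same strand. The deposited values were not whole numbers for Ctsa in 24 libraries, for Ctsb in 19 and for Ctsl in 18. They were whole in all 24 libraries for Ctsd and Ctsz, which also have overlaps. Why some values were not whole was not tested.

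Other lysosomal genes were read from the same fit. Among 34 soluble lysosomal proteins, mostly hydrolases but including the saposin precursor Psap and the sterol carrier Npc2, 1 passed the threshold in 1 comparison. Arsb, the sulfatase that removes sulfate from dermatan and chondroitin sulfate, averaged 226.7 ± 67.9 CPM with ND-Exos and 515.9 ± 195 CPM in Sham. Its log2 fold change was -1.19 (SE 0.24, adjusted p = 0.0468, edgeR), but leaving out 1 of the 12 libraries at a time ended the call 11 times, with adjusted p from 0.0292 to 0.157. The median log2 fold change of the 34 genes was 0.165 in WD-Exos against ND-Exos, with 27 above 0, beside -0.014 over all tested genes, of which 49.2% were above 0. In ND-Exos against BCAS their median was -0.203, with 22 below 0, beside 0.005 over all tested genes, of which 49.6% were below 0. In the other comparisons the median of the 34 genes was 0.163 in WD-Exos against Sham, 0.122 in WD-Exos against BCAS, 0.081 in BCAS against Sham and -0.108 in ND-Exos against Sham. Over the 1423 genes with at least 100 CPM the medians were -0.005 in WD-Exos against ND-Exos, -0.054 in ND-Exos against BCAS, -0.025 in WD-Exos against Sham, -0.053 in WD-Exos against BCAS, 0.017 in BCAS against Sham and -0.05 in ND-Exos against Sham. The corresponding medians of the 10 genes described here were 0.068 in WD-Exos against ND-Exos and -0.151 in ND-Exos against BCAS. They were 0.144 in BCAS against Sham, beside -0.003 over all tested genes, and 0.067 in WD-Exos against Sham. In WD-Exos against BCAS, at -0.039, and in ND-Exos against Sham, at 0.096, their sign was opposite to that of the 34 genes.

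No gene passed among 16 lysosomal membrane and sorting genes, 3 other cathepsins, 3 other cystatins and cathepsin inhibitors, 3 regulators of lysosomal genes and 6 genes of class II antigen processing, by edgeR. At an unadjusted p of 0.05, 2 of the 16 membrane and sorting genes passed in BCAS against Sham, beside 6.04% of all tested genes. There was 1 in ND-Exos against BCAS (4.47% of all genes), 0 in WD-Exos against BCAS (3.71%) and 2 in WD-Exos against ND-Exos (5.33%). In ND-Exos against Sham 3 passed (6.66%), and in WD-Exos against Sham 2 (5.39%). Of the 3 other cathepsins 1 passed, Ctsf in WD-Exos against ND-Exos, and of the remaining lists 0. From each of these lists the gene with the smallest p over the groups is described. Progranulin (Grn), whose product is cleaved to granulins by cathepsins in the lysosome, had 2947 to 4243 CPM (median 3370) with WD-Exos, against 1532 to 2571 CPM (median 1920) with ND-Exos. Every WD-Exos library was above every ND-Exos library, as in 0.703% of genes with at least 100 CPM. The log2 fold change was 0.77 (SE 0.16, adjusted p = 0.254, edgeR). DESeq2 gave an adjusted p of 0.000304 and voom 0.0516. The other settings, all with edgeR, gave 0.105 (genes with a count as a covariate) to 0.265 (replicate block). In 12 edgeR fits with 1 library left out, the adjusted p ran from 0.0813 to 0.473. Ctsf, another cysteine cathepsin, averaged 278.5 ± 48.2 CPM with WD-Exos and 187.7 ± 50.5 CPM with ND-Exos, a log2 fold change of 0.57 (SE 0.23, adjusted p = 0.694, edgeR). Cystatin B (Cstb), the cytosolic inhibitor, averaged 110.6 ± 26.6 CPM with WD-Exos, 137.9 ± 43.4 CPM with ND-Exos, 116 ± 38 CPM in BCAS and 107.8 ± 23.7 CPM in Sham. Tfe3, a regulator of lysosomal genes, averaged 141.9 ± 54.8 CPM with WD-Exos and 74.75 ± 45.7 CPM in Sham, a log2 fold change of 0.92 (SE 0.45, adjusted p = 0.927, edgeR). Cd74, the invariant chain that cathepsin S trims, ranged from 70.36 to 845.4 CPM with WD-Exos, 97.95 to 1499 CPM with ND-Exos, 35.06 to 1501 CPM in BCAS and 55.78 to 2221 CPM in Sham, with wide overlap.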

How the data were processed

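Microglia from 24 samples in 4 groups of 6 were analysed. The authors deposited a table of estimated counts (expected counts, not scaled between libraries) per Entrez gene, made with a tool that is not given in the sources used here; the aligner, build and strand setting are likewise not given. Of 22064 identifiers, 6186 held no value in any library and were dropped, and 15828 of the other 15878 matched a symbol in the RefSeq gene table. The values were whole numbers in every library for 76.8% of genes and were rounded before testing.

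Counts were tested with edgeR 4.0.16 in R 4.3.3: filterByExpr (minimum count 10, 10219 genes kept, all 10 members among them), TMM factors of 0.936 to 1.17, and a robust quasi-likelihood fit over all 24 libraries with 4 group means. P-values were adjusted by Benjamini-Hochberg over all tested genes, with a threshold of 0.05, also in the test of any difference among groups. The common biological coefficient of variation was 1.45, and the median SE of log2 fold changes was 0.241 over the 1423 genes with at least 100 CPM. CPM are on the TMM scale. Correlations used log2(CPM + 1), with 100000 two-sided permutations within groups. The reads were amplified and carry no molecular identifiers, so they do not count independent molecules.

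The members and the gene lists were chosen with earlier results of these data known. All 10 members were named, then from each list the genes past the threshold, or else the 1 with the smallest p over the groups, and for each member the 2 genes most like it, not all of which are reported here. Single fold changes are given where they were at least as large as their SE, which held for 25 of 60. Same-numbered WD-Exos and BCAS samples deviated together from their group means in all 6 pairs (r from 0.118 to 0.288), a pairing that comes from the data and is not stated in the labels. In each other pair of groups at most 1 of 6 was over 0.1 (r from -0.29 to 0.147), and numbers did not pair those groups. The test was tried on simulated BCAS against Sham data (10219 genes, 200 highly expressed ones changed, 3 simulations), where it called 0.667 unchanged genes per simulation. The alternatives tried were RLE size factors, no filter and a stricter filter, a replicate block (also within WD-Exos and BCAS alone), only the libraries compared, voom with library weights (limma 3.58.1), DESeq2 1.42.0 and leaving out each library. Promoter sequences are from RefSeq (GRCm38.p6), and transcript lengths from GENCODE vM21. Figures were drawn with matplotlib 3.10.9.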

Additional observations from a re-analysis of the deposited data

Results flagged for a closer look

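Within the groups of 6, 7 values lay farther from the nearest other library than Dixon's 95% limit allows. They were found among 64 sets checked (10 members and 6 named list genes in 4 groups), where about 1 in 20, or 3.2, would be found by chance. Of these, 3 were members in BCAS replicate 2. Ctsd stood at 9257 CPM there, with the next lowest BCAS library at 20460 CPM. Ctsb stood at 4678 CPM, with the next at 6727 CPM. Ctsh stood at 586.2 CPM, with the next at 787.5 CPM. The same library was the highest of the BCAS group for Cstb, at 191 CPM with the next at 115.9 CPM. Arsb was highest in Sham replicate 2, at 891.2 CPM with the next at 531.3 CPM. Its log2 fold change in ND-Exos against Sham was -0.96 without that library, with an adjusted p of 0.0999 by edgeR. Tfe3 was highest in WD-Exos replicate 1, at 248.7 CPM with the next at 142.5 CPM, and Cd74 in WD-Exos replicate 6, at 845.4 CPM with the next at 276 CPM.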

How the results depend on the processing

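None of the 10 members passed the adjusted threshold under any setting run, including 720 values with a library left out, where the smallest adjusted p was 0.252. The smallest was 0.302 with RLE size factors, 0.192 with no filter, 0.345 with a stricter filter, 0.335 with voom, 0.0667 with DESeq2 and 0.102 with only the libraries compared. With a replicate block it was 0.415, and the block changed no member's call; over all genes it left 0 past the threshold in ND-Exos against Sham, against 11 without it. With the block in a fit of WD-Exos and BCAS alone, chosen after seeing the data, Ctss was -0.30 in WD-Exos against BCAS with an adjusted p of 1, and no call changed. The sign of the 25 fold changes given singly was kept under each of these. It turned for 2 of them with genes with a count as a covariate, an alternative chosen after seeing the data: WD-Exos against BCAS gave 0.0274 for Ctsc and 0.0104 for Cst3, and the cause was not tested. Among all 60 values, most near 0, 14 turned sign with that covariate, 6 with voom and 2 or 3 with each other setting run for all comparisons. With the block in WD-Exos and BCAS alone 1 of 10 values turned, and with a library left out 56 of 720. Counts at an unadjusted p of 0.05 ran, with a library left out, from 1 to 4 in BCAS against Sham (4 without Sham replicate 5 or BCAS replicate 2, 1 without BCAS replicate 1 or 5), 0 to 3 in ND-Exos against BCAS (3 without BCAS replicate 2, 0 without any other BCAS library or without ND-Exos replicate 1, 2 or 3), 0 to 1 in WD-Exos against BCAS, 0 to 2 in WD-Exos against ND-Exos, 0 to 2 in ND-Exos against Sham and 1 to 2 in WD-Exos against Sham. With the other settings they ran from 1 (covariate) to 4 (RLE, voom and DESeq2) in BCAS against Sham, from 0 (voom) to 2 (RLE and DESeq2) in ND-Exos against BCAS, from 0 (voom) to 3 (covariate) in WD-Exos against ND-Exos and in ND-Exos against Sham, and from 1 to 3 (voom) in WD-Exos against Sham. The share of all tested genes at an unadjusted p of 0.05 is given above for the main edgeR fit only. The counts from fits with a library left out or another setting therefore have no background of their own. At the adjusted threshold DESeq2 called 119 to 225 genes per comparison and voom 1 to 63, against 0 to 11 with edgeR. The Arsb call was also lost with RLE size factors (adjusted p = 0.0654), no filter (0.0504), the replicate block (0.0933) and only the libraries compared (0.0536). It was kept with the stricter filter (0.0478), voom (0.0285), DESeq2 (0.000522) and the covariate (0.0428), and the log2 fold change ran from -1.20 to -1.15 over these 8 settings. The median correlation between members was 0.147 with genes with a count subtracted and 0.292 without the 3 lowest libraries, beside 0.53 with neither, and both were chosen after seeing the data.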
